A study of Mus musculus with 18 samples.

Results

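The response of Atrx-mutant hippocampus to 5-aminolevulinic acid (5-ALA) was read from 8 of the 18 arrays of the series: 4 from AtrxΔE2 mice given 5-ALA (numbers 1 to 4) and 4 from AtrxΔE2 mice with no treatment named (numbers 4 to 7). These 8 were chosen because the identifiers of their arrays belong to the same array series, so a difference between array series cannot enter. Treatment was oral, 3 mg/kg of 5-ALA once a day, begun on postnatal day 30 and ended on day 90. Mice of both groups carried the AtrxΔE2 allele, so the comparison holds the mutation constant. Whether the other mice received a vehicle, the age at which tissue was taken, and sex are not given in the labels used here. The protocol counts as many mice as there are arrays in each group of the series. Single-colour arrays of 23473 probes had been hybridised with Cy5-labelled RNA, and levels are given as log2 of the background-corrected, quantile-normalized spot intensity. A change is the 5-ALA mean minus the AtrxΔE2 mean on that scale. It understates the change of dim probes, so the ratio of the groups' mean values in the authors' normalized table, a linear intensity, is given for some genes as the authors' ratio.

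5-ALA is the first committed intermediate of haem synthesis. It is made in mitochondria by ALA synthases, the step at which haem feeds back, and is carried through porphyrins to haem by the downstream enzymes. Haem and porphyrin rings can bind G-quadruplexes, four-stranded structures of G-rich DNA. ATRX is a chromatin remodeller that acts with DAXX to place the histone variant H3.3 in repeats and other G-rich DNA, and its loss in people causes an intellectual disability syndrome. The Xlr genes are a cluster of lymphocyte-regulated genes on the mouse X chromosome, several of which are imprinted.

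The median probe intensity lay between 94.69 and 102.5 on the 8 arrays, and 87.2% to 91.3% of probes exceeded the blank spots. The mean of the blank spots was 61.86 to 63.22 on the 5-ALA arrays and 59.25 to 61.6 on the AtrxΔE2 arrays, so the groups did not overlap in this background measure. Arrays that were next to each other in identifier order resembled each other. Deviations from the group mean correlated across probes at 0.456 for 5-ALA 1 and 2 and at 0.426 for 5-ALA 3 and 4. For AtrxΔE2 the values were 0.186 for arrays 4 and 5 and 0.248 for arrays 6 and 7. All other pairs within a group lay between -0.772 and -0.537. Deviations of 4 arrays from their own mean cancel out for each probe, which by itself makes correlations within a group negative on average. The labels do not say what neighbouring arrays share. Over all probes the SD of the change was 0.20 when 5-ALA 1 and 2 alone were set against AtrxΔE2, and 0.12 for 5-ALA 3 and 4 alone. Results are therefore also given without 5-ALA 1 and 2. Atrx was read by 1 probe at 6.04, 6.00, 6.22 and 6.16 in 5-ALA mice, against 6.04, 6.29 and 6.27 in AtrxΔE2 mice (n = 3, since the spot of array 7 was unusable). The groups overlapped, and its change of -0.10 did not pass the test (limma, adjusted p = 0.576; 95% interval -0.28 to 0.09). The signal was near the blank spots, which limits what this probe can show. The labels do not say whether that probe lies in the deleted part.

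The response was made of many small differences. At a Benjamini-Hochberg adjusted p under 0.05 in limma's two-sided test over 21163 probes, 477 probes were called (2.25%), 208 higher (0.983%) and 269 lower (1.27%) with 5-ALA. By gene, 353 of 15121 named genes were called (2.33%), 149 higher (0.985%) and 204 lower (1.35%). The 4 values of each group did not overlap for 1844 genes (12.2%), 923 higher (6.1%) and 921 lower (6.09%). Over all probes the same held for 2524 (11.9%), 1249 higher (5.9%) and 1275 lower (6.02%). Called changes had a median size of 0.28 on the log2 scale. A total of 50 called probes exceeded 0.5, of which 39 were lower and 11 higher with 5-ALA. The median change over all genes was 0.00.

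How many probes passed depended strongly on single arrays. Leaving out 1 array at a time gave between 69 calls (without AtrxΔE2 5) and 604 calls (without 5-ALA 4). The count was 86 without 5-ALA 1 or without 5-ALA 2, 108 without AtrxΔE2 4, and 109 without AtrxΔE2 7. Without both 5-ALA 1 and 2 it was 51. Treating neighbouring arrays as a random block left 45 calls. Of the 477 probes, 56 were called in each of the 8 fits that left out an array, 45 with the random block, and 41 in all of these. All 477 changed in the same direction against AtrxΔE2 in 5-ALA 1 and 2 as in 5-ALA 3 and 4, with larger changes in 1 and 2 for 321. That shared direction is partly fixed by the selection of called probes. The 41 comprised 29 that fell and 12 that rose, and 26 of them carry a gene name.

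**Figure D1:**
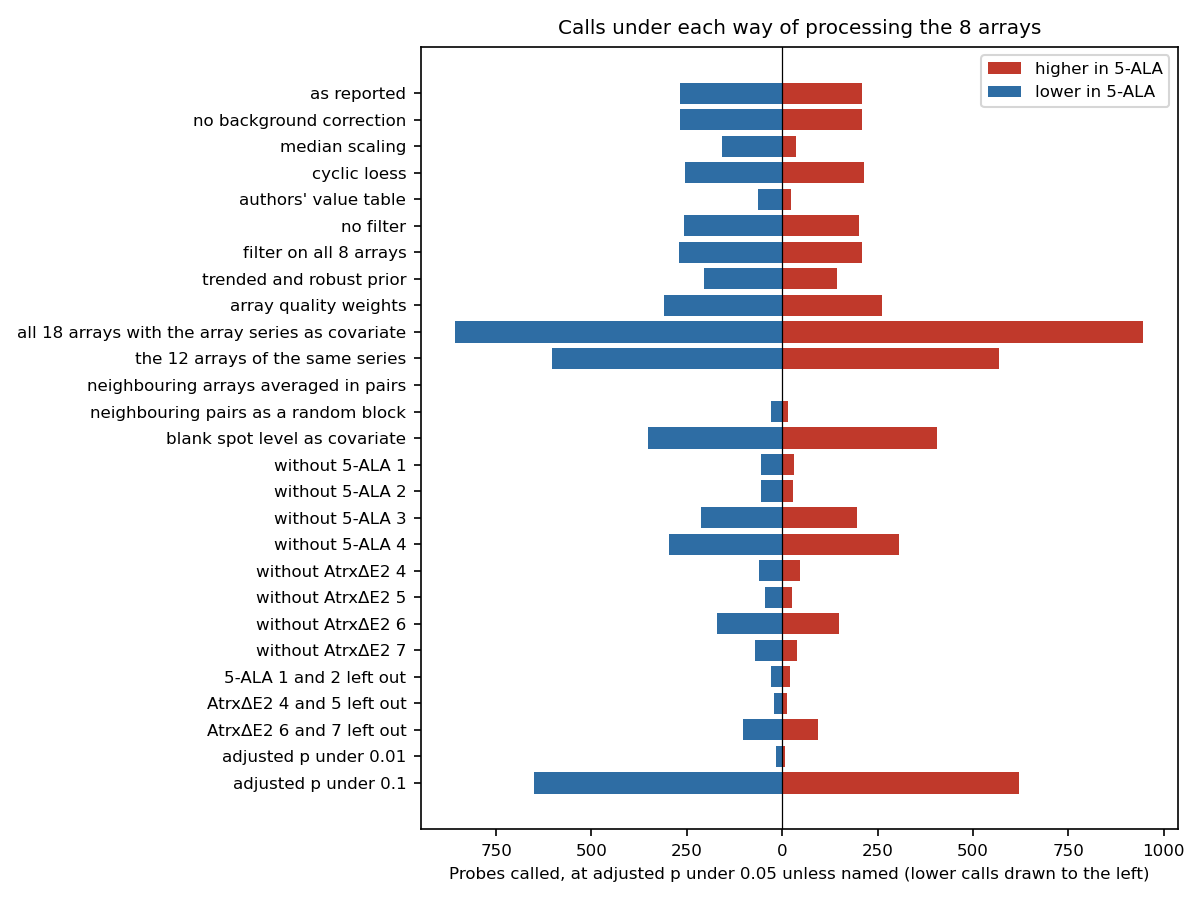
Number of probes called higher with 5-ALA (red, to the right) and lower (blue, to the left) under each way of processing the 8 arrays, at an adjusted p under 0.05 unless the row names another. The 477 calls as reported shrink to 45 with neighbouring pairs as a random block and to 51 without 5-ALA 1 and 2; the fit without 5-ALA 3 and 4, with 3443 calls, is not drawn.

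The Xlr genes fell with 5-ALA. Xlr3b, a member of the Xlr3 family on the X chromosome, stood at 6.54, 6.53, 6.39 and 6.33 in 5-ALA mice, against 7.73, 7.98, 7.53 and 7.71 in AtrxΔE2 mice. All 5-ALA arrays lay far below all AtrxΔE2 arrays. The change was -1.29 (SE 0.0948; limma, adjusted p = 0.00334), and the authors' ratio was 0.212. Xlr3b was called in all 8 fits that left out an array, with an adjusted p of 0.0233 at most, and without 5-ALA 1 and 2 (adjusted p = 0.0286). On a joint scale with wild-type arrays 4 to 7 of the same array series, Xlr3b averaged 6.42 in 5-ALA mice, 7.68 in AtrxΔE2 mice and 6.54 in wild type, where the 4 arrays ran between 6.30 and 6.80. Wild type is given as a level with no test.

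Xlr4b, from the neighbouring Xlr4 family, was much dimmer, near the blank spots. It stood at 6.16, 6.19, 6.16 and 6.10 in 5-ALA mice, against 6.31, 6.32, 6.33 and 6.41 in AtrxΔE2 mice. The groups did not overlap, and the change was -0.19 (SE 0.0324; limma, adjusted p = 0.0341) with an authors' ratio of 0.612. This call was lost in 7 of the 8 fits that left out an array (highest adjusted p = 0.0905), with the random block (adjusted p = 0.13) and without 5-ALA 1 and 2 (adjusted p = 0.103). Xlr5d exceeded the blank spots on 0 of 4 5-ALA arrays and 1 of 4 AtrxΔE2 arrays and was not tested. Xlr3 and Xlr4 have near-identical copies, and the probes may read RNA of more than 1 of them.

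The promoters of Xlr3b and Xlr4b are shown because both genes were called lower in the reported fit and lie near each other. The Xlr4b call was not stable, as given above. The 250 bases before each start are from RefSeq (GRCm38.p6): Xlr3b on the plus strand at chrX:73191929-73192178, and Xlr4b on the plus strand at chrX:73214083-73214332. Capitals mark the longest run of letters that the windows share, CCAGCCAATCAGAGA, which holds the CCAAT letters of a common promoter element.
Xlr3b: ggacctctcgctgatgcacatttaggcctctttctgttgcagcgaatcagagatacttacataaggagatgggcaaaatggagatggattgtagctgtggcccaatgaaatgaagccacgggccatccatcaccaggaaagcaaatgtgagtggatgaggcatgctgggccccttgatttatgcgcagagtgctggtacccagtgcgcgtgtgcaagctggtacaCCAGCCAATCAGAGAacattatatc
Xlr4b: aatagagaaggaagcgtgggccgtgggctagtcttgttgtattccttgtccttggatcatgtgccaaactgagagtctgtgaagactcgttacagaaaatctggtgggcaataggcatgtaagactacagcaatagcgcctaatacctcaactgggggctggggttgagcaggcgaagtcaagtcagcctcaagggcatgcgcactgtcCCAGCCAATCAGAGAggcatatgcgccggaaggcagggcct
The run lies at positions -25 to -11 in Xlr3b and -41 to -27 in Xlr4b, counted back from the start. Searched on both strands, it was found in 8 of 32851 promoter windows of the same length (0.0244%), including Xlr4a and Xlr4c, while CCAAT alone was found in 33.8%. Neither window held a G-quadruplex pattern (4 runs of at least 3 G with loops of 1 to 7 bases), which was found in 16.7% of windows. The run was picked from these same windows, so its presence in both was fixed by that choice. A match or its lack describes these letters only.

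The largest falls included genes outside any of the lists. Cap1, which encodes an actin regulator that binds adenylyl cyclase, had the largest called fall of a named gene. It stood at 7.28, 7.29, 7.53 and 7.37 in 5-ALA mice, against 8.89, 8.95, 9.27 and 9.01 in AtrxΔE2 mice. The change was -1.66 (SE 0.0903; limma, adjusted p = 0.00148), and the authors' ratio was 0.244. Cap1 averaged 7.32 in 5-ALA mice, 8.97 in AtrxΔE2 mice and 7.57 in wild type on the joint scale. Like Xlr3b, Cap1 was thus nearer in 5-ALA mice to its wild-type level than to its AtrxΔE2 level. Cap1 was also called without 5-ALA 1 and 2 (adjusted p = 0.0231) and with the random block (adjusted p = 0.00456).

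Plac9 and Tmem254a, small genes of unclear function in brain, gave another pattern. Plac9 stood at 7.14, 7.31, 7.17 and 7.07 in 5-ALA mice, against 8.49, 8.23, 8.39 and 8.54 in AtrxΔE2 mice, a change of -1.24 (SE 0.0759; limma, adjusted p = 0.00148). Tmem254a stood at 6.29, 6.33, 6.51 and 6.58 in 5-ALA mice, against 7.47, 7.59, 7.52 and 7.48 in AtrxΔE2 mice, a change of -1.09 (SE 0.0677; limma, adjusted p = 0.00148). Groups were far apart for both genes. On the joint scale Plac9 averaged 7.13 in 5-ALA mice, 8.35 in AtrxΔE2 mice and 8.33 in wild type, and Tmem254a averaged 6.40 in 5-ALA mice, 7.46 in AtrxΔE2 mice and 7.47 in wild type. Here the 5-ALA mice stood apart from both other groups. In RefSeq's order, copies of Plac9 and Tmem254 alternate on chromosome 14 (Plac9a, Tmem254a, then Cphx1 and Duxbl1, then further copies), so which copy a probe reads is uncertain. Duxbl1, a homeobox gene of the same repeat, also fell, by 0.21 to a mean near the blank spots (limma, adjusted p = 0.0219). Whether strain background or copy number differs between the mice was not tested.

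Other large falls were in a peptide precursor, a chemokine and a set of unrelated genes. Penk, the enkephalin precursor, fell by 0.94, Fbxo39, an F-box protein, by 0.90, Guca1a, a guanylate cyclase activator known from photoreceptors, by 0.79, and Cuedc1, a CUE-domain protein, by 0.78 (limma, adjusted p between 0.0053 and 0.0121). Fbxo39 stood at 6.99, 6.89, 6.88 and 6.80 in 5-ALA mice, against 7.93, 7.86, 7.77 and 7.61 in AtrxΔE2 mice. Its wild-type mean of 7.11 on the joint scale lay between the 5-ALA mean of 6.85 and the AtrxΔE2 mean of 7.74. Cuedc1 averaged 6.75 in 5-ALA mice, 7.51 in AtrxΔE2 mice and 7.50 in wild type. The chemokine gene Ccl9 stood at 6.17, 6.20, 6.21 and 6.17 in 5-ALA mice, against 6.75, 6.74, 6.65 and 6.81 in AtrxΔE2 mice, a change of -0.55 (SE 0.0346; limma, adjusted p = 0.00148), with an authors' ratio of 0.355. Igfbp2 (-0.57), which binds insulin-like growth factors, Gamt (-0.56), the last enzyme of creatine synthesis, Ndufa4l2 (-0.56), Pabpn1 (-0.56), a nuclear poly(A)-binding protein, Bbs12 (-0.60), a chaperonin-like protein of cilia, Lgals3bp (-0.55) and Cd52 (-0.63), a leukocyte surface glycoprotein, were other falls among the 20 largest that fit none of the lists below. Cd52 lost its call in 7 of the 8 fits that left out an array, Bbs12 in 4 and Igfbp2 in 1. Lgals3bp, Pabpn1 and Ndufa4l2 each lost it in 6, and Gamt in 0. Some smaller falls were called in every fit that left out an array and with the random block. They included Lgals3 (-0.46), Cfap126 (-0.52) and Dynlrb2 (-0.40), the last pair being genes of motile cilia.

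**Figure D2:**
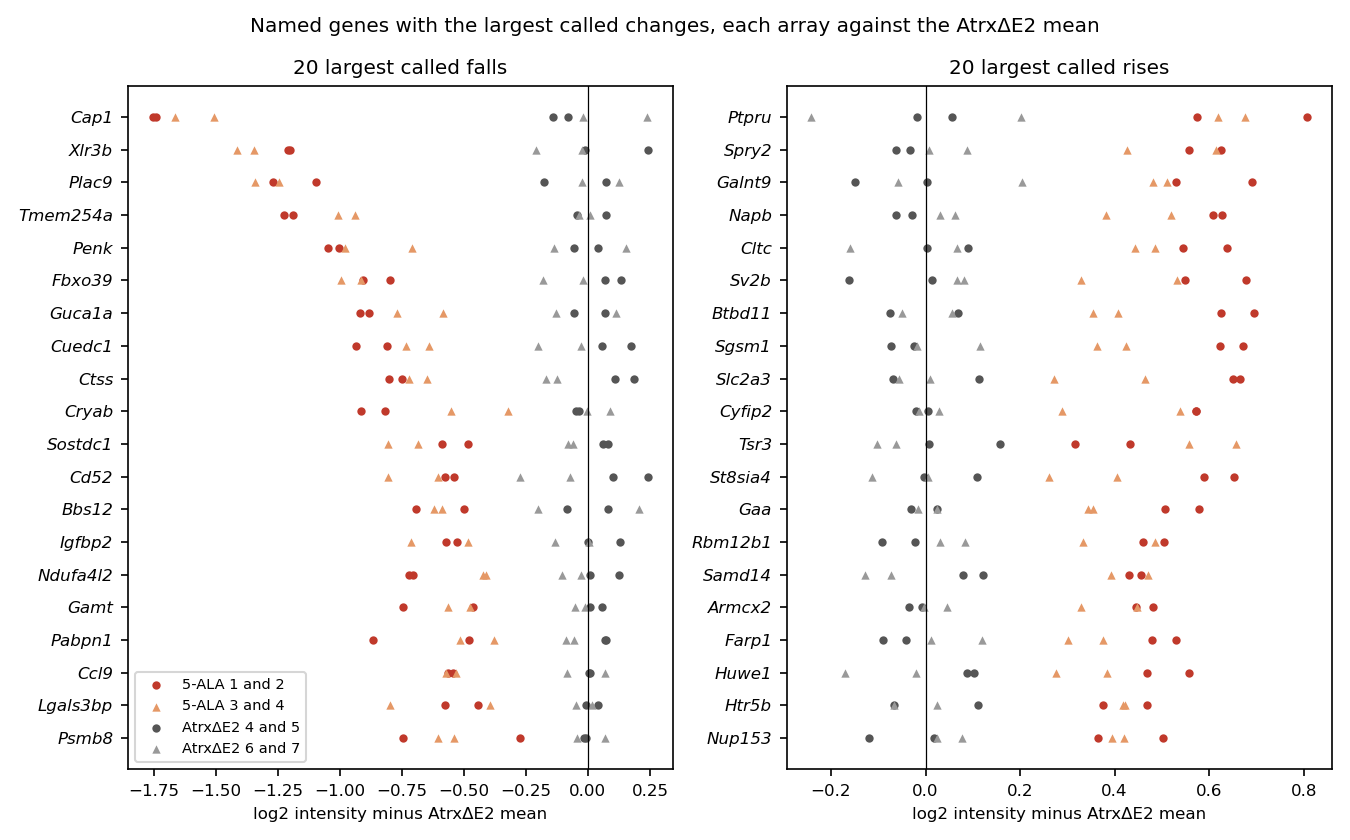
Log2 intensity minus the AtrxΔE2 mean for the 20 largest called falls (left) and the 20 largest called rises (right) among named genes; red circles are 5-ALA 1 and 2, orange triangles 5-ALA 3 and 4, dark grey circles AtrxΔE2 4 and 5, light grey triangles AtrxΔE2 6 and 7. No 5-ALA array overlaps an AtrxΔE2 array for these genes, and among the rises 5-ALA 1 and 2 are often the farthest out.

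The largest rises were smaller than the largest falls. Ptpru, a receptor tyrosine phosphatase, had the largest called rise of a named gene. It stood at 8.16, 8.39, 8.20 and 8.26 in 5-ALA mice, against 7.57, 7.64, 7.34 and 7.79 in AtrxΔE2 mice, a change of 0.67 (SE 0.0939; limma, adjusted p = 0.0189). Its wild-type mean on the joint scale, 7.58, was close to the AtrxΔE2 mean of 7.53 and below the 5-ALA mean of 8.19. The Ptpru call was lost in 4 of the 8 fits that left out an array, with the random block (adjusted p = 0.108) and without 5-ALA 1 and 2 (adjusted p = 0.0929). Spry2, an inhibitor of growth factor receptor signalling to ERK, stood at 6.53, 6.60, 6.59 and 6.40 in 5-ALA mice, against 5.94, 5.91, 6.06 and 5.98 in AtrxΔE2 mice. The change of Spry2 was 0.56 (SE 0.0525; limma, adjusted p = 0.00725), and the authors' ratio was 3.74 because its AtrxΔE2 level is near the blank spots. Spry2 averaged 6.50 in 5-ALA mice, 5.96 in AtrxΔE2 mice and 7.03 in wild type. The Spry2 call was kept in all 8 fits that left out an array but not in a fit of all 18 arrays with the array series as covariate (adjusted p = 0.246).

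Other genes among the 20 largest rises serve varied functions and were chosen by rank. Sv2b is also on the presynaptic list and is counted again there. Napb, the neuronal SNAP that recycles SNARE complexes, rose by 0.53, Cltc, the clathrin heavy chain, by 0.53, and Sv2b, a synaptic vesicle glycoprotein, by 0.52 (limma, adjusted p between 0.0111 and 0.0263). Napb stood at 11.76, 11.74, 11.65 and 11.52 in 5-ALA mice, against 11.07, 11.11, 11.16 and 11.20 in AtrxΔE2 mice. Cyfip2 (0.49), a subunit of the actin-regulating WAVE complex, and St8sia4 (0.48), a polysialyltransferase, also rose. Slc2a3, the neuronal glucose transporter, rose by 0.51, a call lost in 6 of the 8 fits that left out an array and with the random block (adjusted p = 0.111). Sv2b lost its call in 5 of these 8 fits, Cyfip2 in 5 and St8sia4 in 7, while Napb kept it in all 8 and with the random block (adjusted p = 0.0403). Slc2a4 (0.29), the insulin-regulated glucose transporter, and Hk1 (0.23), brain hexokinase, were called in every fit that left out an array and with the random block. Rbm12b1 (0.45) and Rbm12b2 (0.38), neighbouring and related RNA-binding genes, rose together and may share reads of each other's RNA. The dimmer of the tested probes of Tsr3 was called at 0.49, but its brighter probe changed by -0.04. Likewise the dimmer probe of Tuba1b was called at -0.45 while its brighter probe gave 0.08. Of 5 called genes with several tested probes, 0 had all probes called.

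Of the genes that make haem, none was called, where 2.33% of all genes were. Alas1, the housekeeping ALA synthase that haem represses, stood at 9.36, 9.39, 9.37 and 9.39 in 5-ALA mice, against 9.23, 9.31, 9.40 and 9.39 in AtrxΔE2 mice. The groups overlapped, and the change was 0.04 (SE 0.0393; limma, adjusted p = 0.607), with a 95% interval of -0.05 to 0.13. The other 7 of the 8 tested synthesis enzymes were lower with 5-ALA without passing. For 5 of the 8 the groups did not overlap, all lower, against 6.09% of all genes. Urod, which makes coproporphyrinogen, changed by -0.34 (adjusted p = 0.0614) and Fech, which inserts iron, by -0.25 (adjusted p = 0.068). Urod stood at 8.70, 8.58, 8.79 and 8.59 in 5-ALA mice, against 9.15, 8.84, 9.04 and 8.99 in AtrxΔE2 mice. Alad, which joins 5-ALA molecules into porphobilinogen and so acts on 5-ALA itself, stood at 8.20, 7.67, 8.30 and 8.24 in 5-ALA mice, against 8.42, 8.42, 8.49 and 8.44 in AtrxΔE2 mice. Its change of -0.34 (SE 0.129; adjusted p = 0.203) did not pass, and array 2 lay far below the other 5-ALA arrays. The median of the 8 enzymes was -0.17, and ranged from -0.28 to -0.12 over 26 ways of processing. In the fit of all 18 arrays 4 of the 8 were called lower. That fit called many more probes, 1803 of 21163, of which 857 were lower.

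Haem breakdown and transport genes fell in part. Hmox1, the inducible haem oxygenase that opens the haem ring, stood at 6.84, 6.92, 6.99 and 7.00 in 5-ALA mice, against 7.23, 7.24, 7.15 and 7.20 in AtrxΔE2 mice. All 5-ALA arrays were below all AtrxΔE2 arrays, and Hmox1 fell by 0.27 (SE 0.042; limma, adjusted p = 0.0263). It was the 1 called of 9 tested genes of haem breakdown and haem sensing. Of 15 tested transport genes, 2 fell, where 1.35% of all genes were called lower. Tspo, the outer mitochondrial membrane protein that binds porphyrins, stood at 7.59, 7.83, 7.77 and 7.63 in 5-ALA mice, against 8.17, 8.03, 8.05 and 8.15 in AtrxΔE2 mice. It fell by 0.39 (SE 0.0612; limma, adjusted p = 0.0251). Slc48a1, the haem exporter of endolysosomes known as HRG1, stood at 9.74, 9.85, 9.95 and 9.89 in 5-ALA mice, against 10.30, 10.26, 10.15 and 10.15 in AtrxΔE2 mice. It fell by 0.36 (SE 0.0553; limma, adjusted p = 0.0246). These 3 calls were lost without 5-ALA 1 and 2 (adjusted p = 0.0859 for Hmox1, 0.0784 for Tspo and 0.0969 for Slc48a1) and with the random block (0.0867 for Hmox1, 0.137 for Tspo and 0.0808 for Slc48a1). Hmox1 and Tspo are also abundant in microglia, whose markers were lower with 5-ALA, as described below, and the part of that in these falls was not tested.

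Calls among iron and antioxidant genes were near the 2.33% of all genes. Of 17 tested iron genes 0 were called at the adjusted threshold. Ftl1, the ferritin light chain, changed by -0.37 (adjusted p = 0.071) and Tfrc, the transferrin receptor, by 0.26 (adjusted p = 0.139). Of 18 tested targets of NRF2, the factor that drives antioxidant genes, and glutathione genes, 1 fell. Nqo1, a quinone reductase, fell by 0.22 (limma, adjusted p = 0.0461), with 5-ALA arrays at 6.70, 6.71, 6.85 and 6.72 and AtrxΔE2 arrays at 6.98, 6.90, 7.03 and 6.97. The call was lost in 7 of 8 fits that left out an array. The median of that list was -0.15, with 13 of 18 genes lower. Among 16 superoxide dismutases, catalase and peroxidases 0 passed, and the genes of smallest p, Gpx8 (-0.23) and Prdx4 (-0.14), had adjusted p of 0.123 and 0.213.

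**Figure D3:**
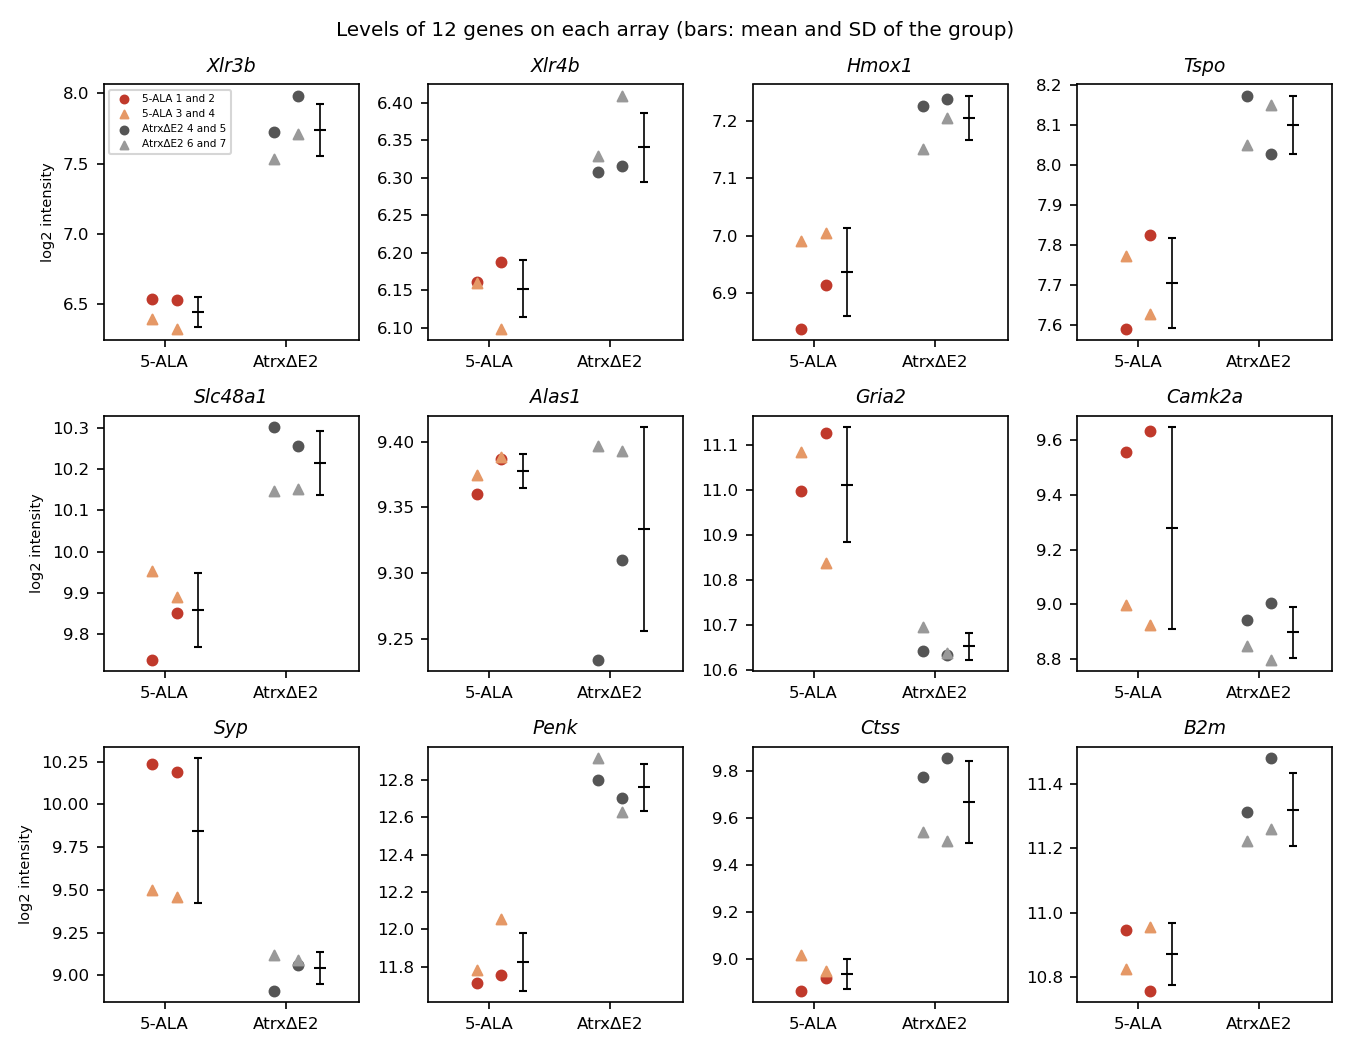
Log2 intensity of 12 genes on each array, with 5-ALA arrays left and AtrxΔE2 arrays right in each panel; points are arrays, with colours and shapes by neighbouring pair, bars are the mean and SD of the 4 arrays, and the vertical axes differ and do not start at 0. Xlr3b, Hmox1, Penk and Ctss separate fully, Alas1 overlaps, and for Camk2a and Syp the pair 5-ALA 1 and 2 lies well above 5-ALA 3 and 4.

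Glutamate receptor subunits rose in part. Of 14 tested AMPA and NMDA receptor genes, which carry fast excitatory transmission, 2 rose and 0 fell, and for 5 the groups did not overlap, all higher. Of all genes, 0.985% were called higher, and 6.1% did not overlap and were higher. Gria2, the subunit that limits calcium entry, stood at 11.00, 11.13, 11.09 and 10.84 in 5-ALA mice, against 10.64, 10.63, 10.70 and 10.64 in AtrxΔE2 mice, a rise of 0.36 (SE 0.0605; limma, adjusted p = 0.033). Gria3 stood at 10.04, 10.12, 10.31 and 10.24 in 5-ALA mice, against 9.65, 9.85, 9.84 and 9.87 in AtrxΔE2 mice, a rise of 0.38 (SE 0.0713; limma, adjusted p = 0.0437). Both rises were clear of overlap but lost their call without 5-ALA 1 and 2 (adjusted p = 0.129 for Gria2 and 0.0731 for Gria3) and with the random block (0.141 for Gria2 and 0.138 for Gria3). Grin1, the obligatory NMDA receptor subunit, changed by 0.44 without passing (adjusted p = 0.057). Gria1, the other main AMPA receptor subunit of pyramidal cells, changed by 0.18 (adjusted p = 0.371), and Grin2b, the NMDA receptor subunit that prevails early in development, by 0.02 (adjusted p = 0.85). The median of the 14 genes was 0.08.

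Presynaptic genes rose in part. Of 22 tested genes of vesicles and release, 3 rose: Sv2b, Syt1, the calcium sensor of release, by 0.30, and Pclo, the active zone scaffold piccolo, by 0.23 (limma, adjusted p between 0.0263 and 0.0452). Of all genes, 0.985% were called higher, and 6.09% did not overlap and were lower. With the random block, and without 5-ALA 1 and 2, 0 of the 22 were called. Those fits called 45 and 51 of all 21163 probes. None passed as lower, although 3 did not overlap and were lower, among them Cplx2 (-0.75, adjusted p = 0.204) and Snap25 (-0.42, adjusted p = 0.126), both parts of the SNARE fusion machinery. Syp, a major vesicle membrane protein, stood at 10.24, 10.19, 9.50 and 9.46 in 5-ALA mice, against 8.91, 9.06, 9.12 and 9.09 in AtrxΔE2 mice. It did not pass (0.80, adjusted p = 0.0742), and 5-ALA 1 and 2 lay far above 5-ALA 3 and 4. The median of the list was 0.27 with 5-ALA 1 and 2 alone and 0.06 with 5-ALA 3 and 4 alone.

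Camk2a, the calcium/calmodulin kinase of synaptic plasticity, was not called. It stood at 9.56, 9.64, 8.9967 and 8.92 in 5-ALA mice, against 8.94, 9.004, 8.85 and 8.80 in AtrxΔE2 mice. The groups overlapped, and the change of 0.38 (SE 0.168; limma, adjusted p = 0.264) came to 0.70 with 5-ALA 1 and 2 alone and 0.06 with 5-ALA 3 and 4 alone. Of 14 tested calcium/calmodulin kinase genes 0 were called, and Camkv, a kinase-like protein of spines, had the smallest p (0.30, adjusted p = 0.0572). Of 16 postsynaptic scaffold and adhesion genes 0 were called, and Dlgap1, which links PSD-95 to Shank, changed by 0.57 (adjusted p = 0.0572), with 10.60, 10.61, 10.10 and 10.22 in 5-ALA mice, against 9.80, 9.93, 9.80 and 9.71 in AtrxΔE2 mice. Of 10 GABA-A receptor and gephyrin genes 0 were called. Of all genes, 2.33% were called, 0.985% higher and 1.35% lower, so lists of this size can hold few or none. Among 25 potassium channel genes Kcnn2, a calcium-activated channel, rose by 0.35 and Kcnk1, a leak channel, fell by 0.30 (limma, adjusted p = 0.0383 and 0.0343). Kcnn2 lost its call in 7 of the 8 fits that left out an array and Kcnk1 in all 8, and both lost it with the random block and without 5-ALA 1 and 2. Of 15 immediate early genes, Ier2 alone passed, and fell by 0.35 (limma, adjusted p = 0.0377), a call lost in 6 of the 8 fits that left out an array. Egr1 changed by 0.60 without passing (adjusted p = 0.144). Of 13 glucocorticoid response genes 0 passed, with Per1, a clock gene that glucocorticoids induce, at 0.45 (adjusted p = 0.0679).

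Genes of the chromatin pathways in which ATRX acts had no call, and with 2.33% of all genes called, lists of this size can hold none. Of 20 tested genes of H3K9 methylation, HP1, H3.3 and its chaperones 0 passed, while for 6 the groups did not overlap and were higher and for 1 lower, against 12.2% of all genes in either direction. Ehmt2, an H3K9 methyltransferase, changed by 0.31 (adjusted p = 0.068) and Morc3 by 0.20 (adjusted p = 0.0605). Daxx, the partner of ATRX, changed by 0.10 (adjusted p = 0.649), and the H3.3 genes H3f3a and H3f3b by -0.25 and -0.18 (adjusted p = 0.362 and 0.0807). Of 13 DNA methylation and methyl-DNA reader genes 0 passed, and Dnmt1, the maintenance methyltransferase, changed by 0.44 (adjusted p = 0.0866). Dnmt1 stood at 7.93, 7.95, 7.72 and 7.48 in 5-ALA mice, against 7.32, 7.18, 7.38 and 7.46 in AtrxΔE2 mice. Of 14 G-quadruplex helicases and binding proteins 0 passed, with Dhx36 at 0.16 (adjusted p = 0.215). Counted by gene, the G-quadruplex pattern stood in 25.9% of tested genes with a RefSeq promoter window. The share was 31.4% of 121 genes called higher and 26.7% of 161 called lower.

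The labelled tissue is hippocampus, and markers of its neurons were present on all arrays. Of 10 tested CA1 pyramidal markers 2 rose and 0 fell, against 0.985% of all genes called higher. Fibcd1 stood at 6.55, 6.50, 6.54 and 6.59 in 5-ALA mice, against 6.35, 6.31, 6.18 and 6.13 in AtrxΔE2 mice, a rise of 0.31 (SE 0.0524; limma, adjusted p = 0.0341). Iyd, also on the CA3 and CA2 list, rose by 0.33 (SE 0.0585; limma, adjusted p = 0.0363). Each of these calls was lost in 7 of the 8 fits that left out an array, without 5-ALA 1 and 2 (adjusted p = 0.122 for Fibcd1 and 0.124 for Iyd) and with the random block (0.0966 for Fibcd1 and 0.118 for Iyd). The median of the CA1 list was 0.27 and stayed above 0 over 26 ways of processing (0.07 to 0.44). Dentate granule (12 tested), interneuron (18), cortical (12) and oligodendrocyte precursor (10) lists had 0 calls. In bulk tissue, fewer cells of a type and less RNA per cell cannot be told apart.

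Markers of striatal neurons, cells of a neighbouring forebrain region, were lower in 5-ALA mice. All 12 tested markers had a lower mean with 5-ALA, for 10 the groups did not overlap, and 3 fell past the threshold. Of all genes, 6.09% did not overlap and were lower, and 1.35% were called lower. Penk stood at 11.71, 11.76, 11.78 and 12.05 in 5-ALA mice, against 12.80, 12.70, 12.92 and 12.63 in AtrxΔE2 mice, with a change of -0.94 (SE 0.0888; limma, adjusted p = 0.00725) and an authors' ratio of 0.515. Ppp1r1b, the dopamine-regulated phosphatase inhibitor DARPP-32, stood at 11.61, 11.73, 11.72 and 11.59 in 5-ALA mice, against 12.01, 12.08, 12.23 and 12.47 in AtrxΔE2 mice, with a change of -0.54 (limma, adjusted p = 0.039). Gpr6, a receptor of striatal projection neurons, changed by -0.53 (limma, adjusted p = 0.0217). Rgs9 (-0.61, adjusted p = 0.0525), a regulator of dopamine receptor signalling, and Tac1 (-0.67, adjusted p = 0.0803), the substance P precursor, did not pass and did not overlap between groups. The dopamine receptor genes Drd1 (-0.57, adjusted p = 0.183) and Drd2 (-0.28, adjusted p = 0.0828) did not pass. The median of the list was -0.51, and lay between -0.77 and -0.33 over 26 ways of processing. Summed over the list, the authors' normalized intensity was 4212 to 4890 on 5-ALA arrays, 7041 to 8160 on AtrxΔE2 arrays and 4895 to 6149 on wild-type arrays 4 to 7. The groups of AtrxΔE2 mice did not overlap in this sum. Penk alone averaged 1876 on 5-ALA arrays and 3640 on AtrxΔE2 arrays in those values, so it carries a large part of the gap. Without 5-ALA 1 and 2, 0 of the 12 were called, and with the random block 1 was. Those fits called 51 and 45 of all 21163 probes. Penk kept its call in all 8 fits that left out an array, while Ppp1r1b lost it in 7 and Gpr6 in 4. Hippocampal cells also express Penk and Ppp1r1b, and the part of tissue boundaries in this difference was not tested.

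Thalamic and septal markers differed less uniformly. Of 14 tested, Nts, the neurotensin precursor, fell by 0.41 (limma, adjusted p = 0.0452; lost in 7 of the 8 fits that left out an array) and 0 rose, while the list median was 0.20 in the other direction. For 4 the groups did not overlap and were higher with 5-ALA, as held for 6.1% of all genes. The authors' summed intensity was 690.4 to 1146 on 5-ALA arrays and 465.8 to 890.5 on AtrxΔE2 arrays, which overlap. On AtrxΔE2 arrays the list means separated arrays 4 and 5 (0.12 and 0.17 above the group mean) from arrays 6 and 7 (-0.14 and -0.15).

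**Figure D4:**
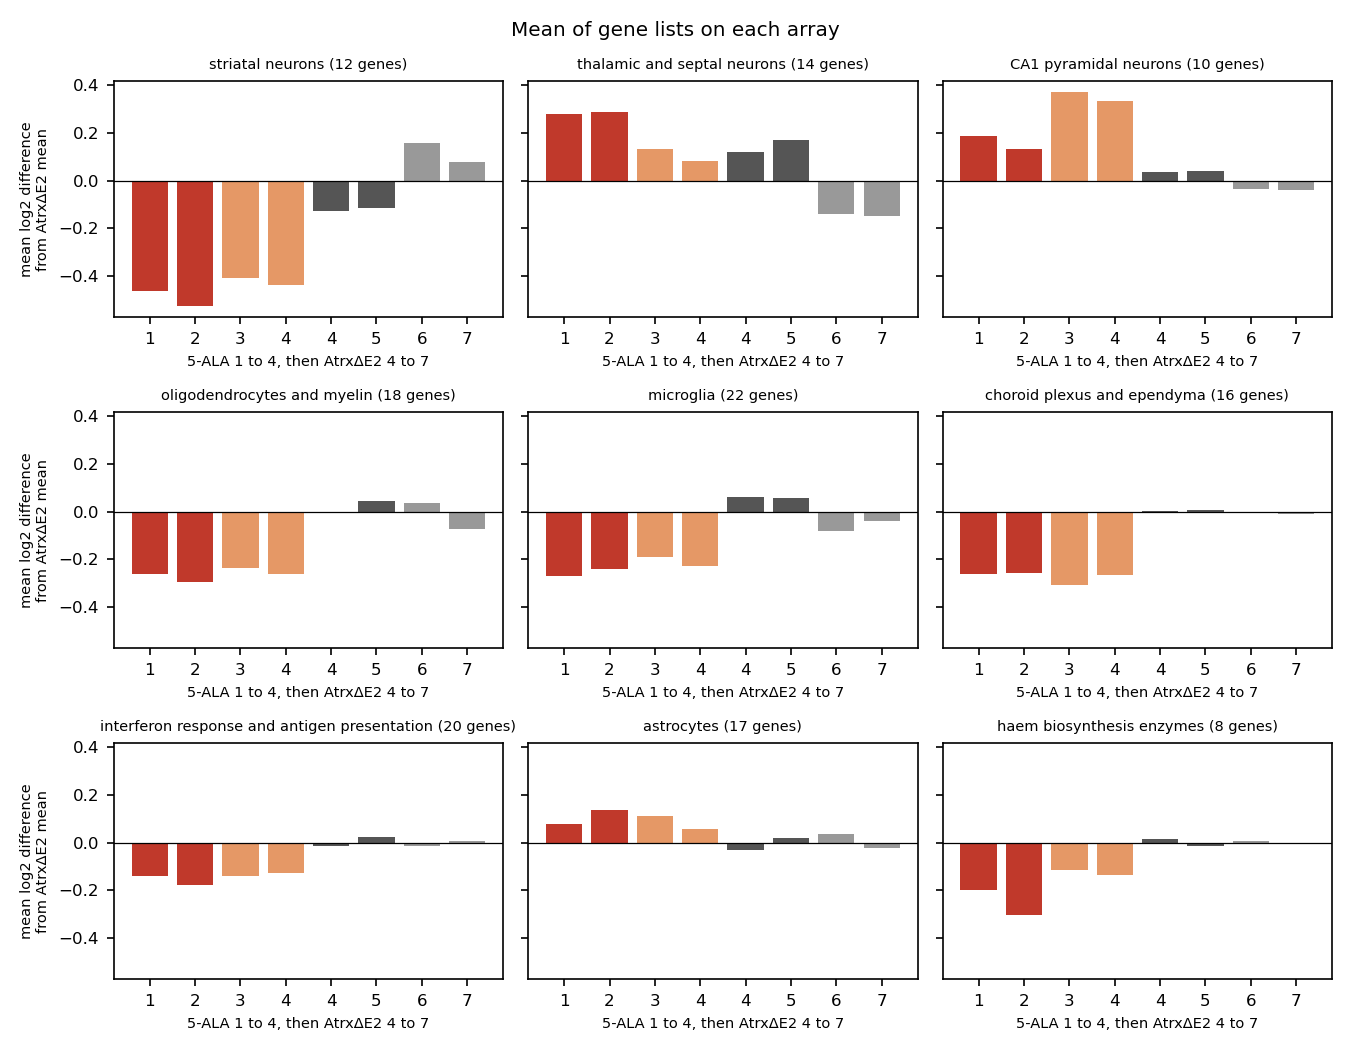
Mean log2 difference from the AtrxΔE2 mean over the genes of 9 lists on each array; red and orange bars are 5-ALA 1 to 4, dark and light grey bars AtrxΔE2 4 to 7. All 4 5-ALA arrays are below 0 for the striatal, oligodendrocyte, microglial, choroid plexus, interferon and haem synthesis lists. The striatal and thalamic lists also separate AtrxΔE2 4 and 5 from 6 and 7, and by less so do the microglial, CA1 and choroid plexus lists.

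Microglial genes fell in part. Of 22 tested markers 4 fell and 0 rose, against 1.35% of all genes called lower. For 21 the mean was lower with 5-ALA, and for 10 the groups did not overlap, against 6.09% of all genes in this direction. Ctss, the lysosomal protease cathepsin S of myeloid cells, stood at 8.87, 8.92, 9.02 and 8.95 in 5-ALA mice, against 9.78, 9.85, 9.54 and 9.50 in AtrxΔE2 mice, a fall of 0.73 on the log2 scale (SE 0.0829; limma, adjusted p = 0.0118). Its call was kept in all 8 fits that left out an array, though not without 5-ALA 1 and 2 (adjusted p = 0.0799). C1qa fell by 0.46 and C1qc by 0.39, neighbouring genes for chains of complement C1q, and Cd68, a lysosomal membrane protein, fell by 0.41 (limma, adjusted p between 0.0135 and 0.048). C1qa stood at 9.22, 9.34, 9.51 and 9.34 in 5-ALA mice, against 9.81, 9.85, 9.78 and 9.80 in AtrxΔE2 mice, with no overlap. Markers of resting microglia did not pass: P2ry12, a purine receptor, changed by -0.31 (adjusted p = 0.441), Cx3cr1, the fractalkine receptor, by -0.15 (adjusted p = 0.198) and Tmem119 by 0.09 (adjusted p = 0.411). The third C1q chain gene, C1qb, changed by -0.36 without passing (adjusted p = 0.104). The list median was -0.23, and lay between -0.28 and -0.15 over 26 ways of processing. Summed intensity overlapped between groups, at 9668 to 11320 in 5-ALA mice and 10350 to 12290 in AtrxΔE2 mice. C1qa lost its call in 2 of the 8 fits that left out an array, C1qc in 7 and Cd68 in 5. Without 5-ALA 1 and 2, 0 of the 22 were called, and with the random block 1 was. Those fits called 51 and 45 of all 21163 probes.

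A few interferon response and antigen presentation genes fell. Of 20 tested, 3 fell and 0 rose, against 1.35% of all genes called lower, and 18 had a lower mean with 5-ALA. B2m, the light chain of MHC class I, stood at 10.95, 10.76, 10.82 and 10.96 in 5-ALA mice, against 11.31, 11.48, 11.22 and 11.26 in AtrxΔE2 mice, a fall of 0.45 (SE 0.0675; limma, adjusted p = 0.0233). Psmb8, an immunoproteasome subunit, fell by 0.54 (limma, adjusted p = 0.0324), and Usp18, which removes the ubiquitin-like modifier ISG15, by 0.27 (limma, adjusted p = 0.0295). Groups did not overlap for these 3, nor for the summed intensity of the list, 1972 to 2274 in 5-ALA mice and 2527 to 2929 in AtrxΔE2 mice. The peptide transporter gene Tap1 (-0.04, adjusted p = 0.532) and the interferon-induced Ifit1 (-0.02, adjusted p = 0.701) showed small differences, while Ifit3 changed by -0.38 without passing (adjusted p = 0.0679). Psmb8 was the 1 gene of the list called without 5-ALA 1 and 2 (limma, adjusted p = 0.0259), and with the random block 0 were called. Those fits called 51 and 45 of all 21163 probes. Psmb8 lost its call in 7 of the 8 fits that left out an array, B2m in 5 and Usp18 in 4.

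The promoters of B2m and Ctss are shown because both genes fell and both windows hold the letters GAAA, any 2 bases and GAAA again, the core of an interferon-stimulated response element. The 250 bases before the start are from RefSeq (GRCm38.p6): B2m on the plus strand at chr2:122147437-122147686 and Ctss on the plus strand at chr3:95526536-95526785. Capitals mark the match, at -139 to -130 in B2m and -21 to -12 in Ctss.
B2m: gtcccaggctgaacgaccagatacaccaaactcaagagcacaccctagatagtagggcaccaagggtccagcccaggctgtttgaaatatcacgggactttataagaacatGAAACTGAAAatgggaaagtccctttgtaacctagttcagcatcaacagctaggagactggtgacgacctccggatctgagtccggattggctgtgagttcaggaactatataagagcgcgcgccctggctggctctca
Ctss: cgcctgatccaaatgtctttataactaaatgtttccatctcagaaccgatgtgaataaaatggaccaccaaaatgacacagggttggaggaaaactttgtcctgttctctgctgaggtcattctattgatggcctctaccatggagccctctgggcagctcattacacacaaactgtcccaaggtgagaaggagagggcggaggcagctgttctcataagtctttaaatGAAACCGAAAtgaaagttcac
Searched on both strands, this pattern was found in 2.98% of 32851 promoter windows. Counted by gene, it stood in 3.12% of tested genes with a window. The share was 5 of 16 for interferon-list genes (31.2%), 4.97% for genes called lower and 0.826% for genes called higher. These are descriptions of letters, not of binding.

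Myelin genes fell in part. Of 18 tested oligodendrocyte and myelin genes 4 fell and 0 rose, against 1.35% of all genes called lower. For 8 the groups did not overlap, all lower, against 6.09% of all genes. Cryab, a small heat shock protein, fell by 0.65, Aspa, which breaks down N-acetylaspartate, by 0.50, Gjb1, the connexin of myelin, by 0.42, and Qdpr, a pteridine reductase, by 0.40 (limma, adjusted p between 0.0133 and 0.0461). Gjb1 stood at 7.01, 7.00, 6.85 and 6.94 in 5-ALA mice, against 7.39, 7.43, 7.26 and 7.39 in AtrxΔE2 mice. Mbp, the main myelin basic protein gene, stood at 12.33, 12.32, 12.83 and 12.79 in 5-ALA mice, against 13.26, 13.26, 13.13 and 13.15 in AtrxΔE2 mice, which did not pass (-0.63, adjusted p = 0.0511). Other myelin genes did not pass, among them Cnp (0.09, adjusted p = 0.82), Mag (-0.21, adjusted p = 0.215) and the regulator Myrf (-0.02, adjusted p = 0.779). The list median was -0.30, and lay between -0.39 and -0.22 over 26 ways of processing. Its summed intensity was 17740 to 18690 in 5-ALA mice and 20950 to 23500 in AtrxΔE2 mice. Without 5-ALA 1 and 2, 0 were called, while all 18 means were lower, and with the random block 0 were called. Those fits called 51 and 45 of all 21163 probes. Cryab lost its call in 7 of the 8 fits that left out an array, Aspa and Qdpr in 6 each and Gjb1 in 1.

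Choroid plexus and ependymal genes fell in part. Of 16 tested 5 fell and 0 rose, against 1.35% of all genes called lower. With the random block 2 of the 16 were called lower, in a fit that called 30 of 21163 probes lower. Sostdc1, a secreted antagonist of BMP and Wnt, stood at 8.64, 8.74, 8.54 and 8.42 in 5-ALA mice, against 9.29, 9.31, 9.15 and 9.16 in AtrxΔE2 mice, a fall of 0.64 (SE 0.0726; limma, adjusted p = 0.0118). Otx2, the transcription factor of choroid epithelium, stood at 7.72, 7.64, 7.81 and 7.75 in 5-ALA mice, against 8.17, 8.10, 8.12 and 8.09 in AtrxΔE2 mice, a fall of 0.39 (SE 0.0397; limma, adjusted p = 0.00963). Both were called without 5-ALA 1 and 2 (adjusted p = 0.0286 for Sostdc1 and 0.0481 for Otx2). Tmem212 fell by 0.38, Kcne2, a potassium channel subunit, by 0.31 and Cldn2, a tight junction protein, by 0.30. Sostdc1, Otx2 and Tmem212 kept their call in all 8 fits that left out an array, while Kcne2 and Cldn2 each lost it in 6. Foxj1, the regulator of motile cilia in ependyma, changed by 0.00, and Aqp1, the choroid water channel, by -0.26 (adjusted p = 0.335). The list median was -0.28, and lay between -0.36 and -0.19 over 26 ways of processing. Ttr, the choroid's transthyretin, was the brightest probe on every array, so quantile normalization fixes its change at 0, and the authors' ratio for it was 0.915. The summed intensity, 33770 to 37590 in 5-ALA mice and 37300 to 42920 in AtrxΔE2 mice, overlapped slightly. The amount of choroid plexus left on the dissected tissue was not tested.

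Of 22 endothelial and pericyte genes 3 fell: Vtn, vitronectin of pericytes, by 0.41, Cldn5, the tight junction claudin of the blood-brain barrier, by 0.37, and Pltp, a phospholipid transfer protein, by 0.24 (limma, adjusted p between 0.0135 and 0.0424). Of all genes, 1.35% were called lower. Without 5-ALA 1 and 2, and with the random block, 0 of the 22 were called. Those fits called 51 and 45 of all 21163 probes. Vtn lost its call in 7 of the 8 fits that left out an array, Cldn5 in 5 and Pltp in 1. The list median of -0.08 turned to 0.06 with the blank level as covariate. Of 17 astrocyte genes 0 passed, and the median was 0.01. Among them Glul, glutamine synthetase, had the largest difference of means (1.01, adjusted p = 0.227), with overlapping groups at 9.32, 9.28, 10.32 and 10.37 in 5-ALA mice and 8.23, 8.17, 9.33 and 9.51 in AtrxΔE2 mice. Of 13 meningeal genes 0 passed, with Igf2 at -0.49 (adjusted p = 0.0539).

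**Figure D5:**
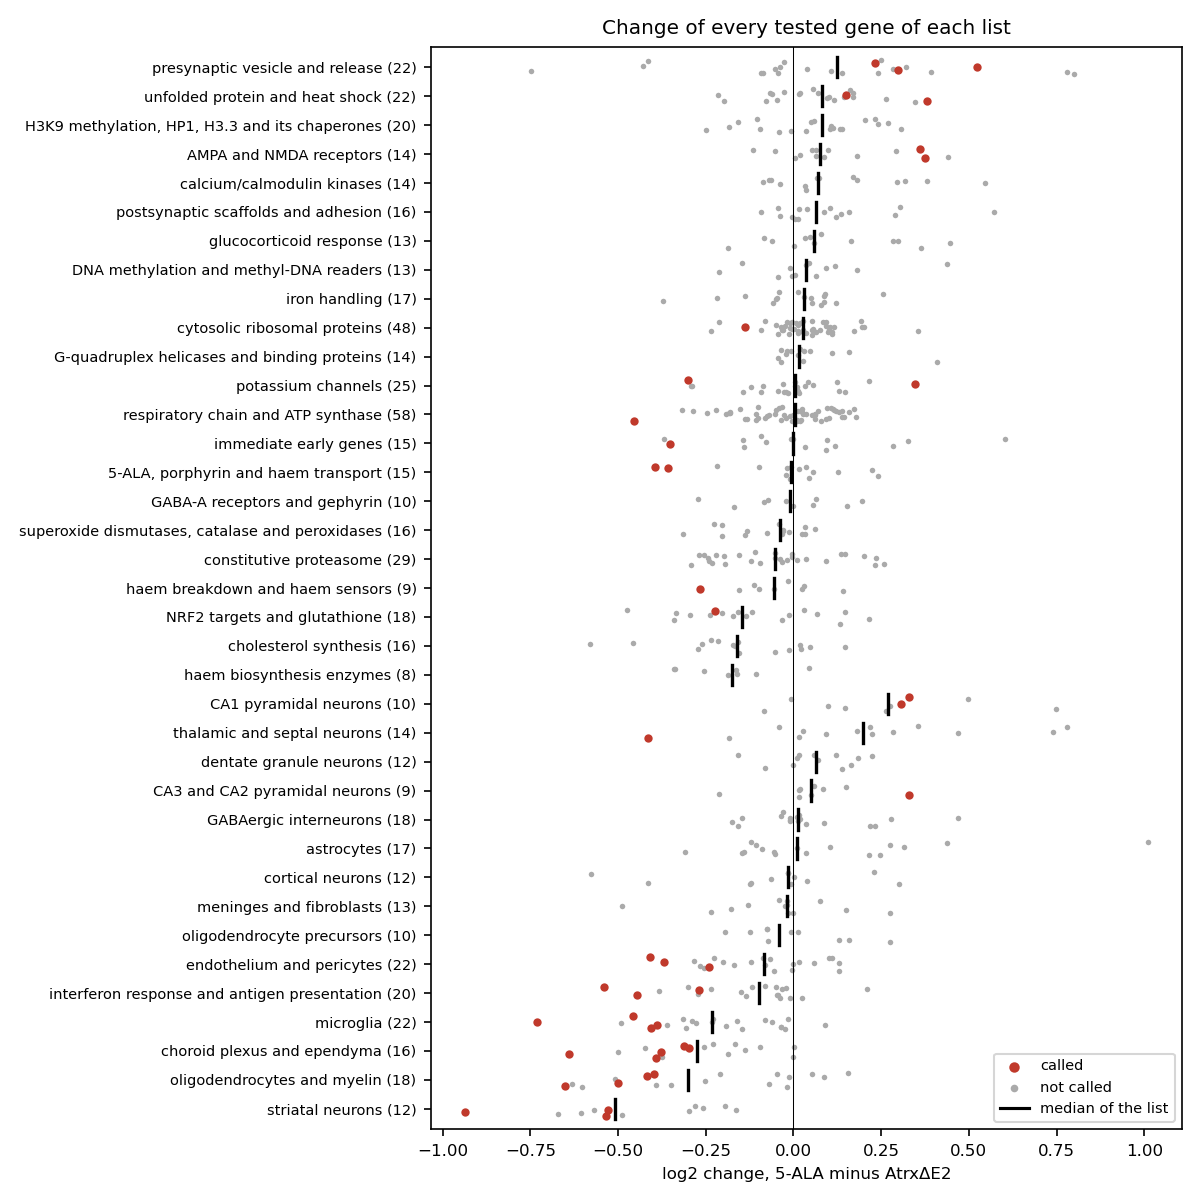
Change of every tested gene of each list with at least 8 tested genes, as log2 of 5-ALA minus AtrxΔE2, with the number tested in brackets; red points were called, grey points were not, and the black bar is the median. Calls lie to the left for the striatal, myelin, choroid plexus, microglial and interferon lists and to the right for the presynaptic and AMPA and NMDA lists, and most lists have their median near 0.

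Calls among genes of general cell machinery were near the 2.33% of all genes, except in the unfolded protein and heat shock list. Of 58 tested respiratory chain and ATP synthase genes Sdhd, a membrane anchor of succinate dehydrogenase that holds haem, fell by 0.45 (limma, adjusted p = 0.0176), and the list median was 0.00. Sdhd stood at 10.47, 10.54, 10.61 and 10.35 in 5-ALA mice, against 11.00, 10.87, 11.02 and 10.90 in AtrxΔE2 mice. Of 48 cytosolic ribosomal protein genes Rpl22 alone passed, with a fall of 0.14 (limma, adjusted p = 0.048). Of 29 proteasome genes 0 passed. Of 22 unfolded protein and heat shock genes 2 were called (9.09%), both higher, where 0.985% of all genes were called higher. Canx, the chaperone calnexin, rose by 0.38 and Hsp90aa1 by 0.15 (limma, adjusted p = 0.0322 and 0.0486). The Hsp90aa1 change reversed to -0.0086 when arrays were scaled by their median alone. In these lists 0 genes were called with the random block or without 5-ALA 1 and 2. Those fits called 45 and 51 of all 21163 probes. Of 16 cholesterol synthesis genes 0 passed, with a median of -0.16.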

How the data were processed

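Hippocampal RNA from 4 5-ALA-treated AtrxΔE2 mice and 4 AtrxΔE2 mice was analysed. Per the labels' protocols, total RNA was amplified to amino allyl RNA, coupled to Cy5 and hybridised. Per the file headers, the deposited value is the median spot intensity at 635 nm, from 3 scanner gains related by least squares. The authors' second deposited table holds a normalized linear intensity whose making is not given in the sources used here. Arrays carry no counts, so their number limits the precision.

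Intensity was corrected with normexp (offset 50; no local background, since the deposited background follows spot brightness), unusable spots were dropped, the log2 values of a probe's spots were averaged, and the 8 arrays were quantile normalized. Probes above the 95th percentile of blank spots on at least 4 arrays were tested (21163, with 2310 left out; 48 had an unusable spot and were fitted on the other arrays). limma 3.58.1 in R 4.3.3 gave moderated two-sided tests with Benjamini-Hochberg adjustment. Platform symbols (16631 probes with 1, 0 with several, 6842 unnamed) were updated through RefSeq on GRCm38.p6: 12622 were current, 3947 came through a synonym and 62 were not found. A gene is read by its brightest tested probe. On simulated data (21115 probes, 200 changed), 35.8% of changes of 0.25, 82.1% of 0.5 and 93.9% of 1 on the log2 scale were recovered. The simulated arrays were independent of each other. The resemblance of neighbouring arrays was not simulated, so these shares can be too high for the real arrays.

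Lists and members were chosen with earlier results of these data known. Genes named are Atrx, the Xlr genes, Camk2a, Alas1 and Hmox1, the 20 largest called rises and falls, and up to 5 called members of each list, or the 2 of smallest p. Others named (such as Syp, Mbp, Alad, Drd1, P2ry12, Egr1, Glul, Hk1) were chosen after their values were seen. Lists have no test. Alternatives covered background, normalization, filter, prior, weights, array sets, neighbouring pairs, blank level and threshold.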

Additional observations from a re-analysis of the deposited data

Results flagged for a closer look

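In a group of 4 arrays, 1 array was called far from the others when its gap to the nearest, divided by the group's range, exceeded Dixon's 95% critical value. Among 233 groups of named genes 9 met this, and chance gives about 1 in 20. In 5-ALA mice, Cyfip2 had array 4 lowest (11.30 against 11.55 for the nearest; ratio 0.885), Nqo1 had array 3 highest (6.85 against 6.72; ratio 0.881), and Prdx4 had array 1 lowest (8.22 against 8.35; ratio 0.87). Stxbp6 had 5-ALA array 3 highest (7.25 against 7.01; ratio 0.863), and Slc1a2 had 5-ALA array 4 lowest (6.75 against 6.99; ratio 0.83). In AtrxΔE2 mice, Gria3 had array 4 lowest (9.65 against 9.84; ratio 0.845), Dhx36 had array 4 lowest (7.96 against 8.05; ratio 0.845), Gria2 had array 6 highest (10.70 against 10.64; ratio 0.836), and Bpgm had array 6 lowest (9.561 against 9.997; ratio 0.921).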

How the results depend on the processing

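The 477 calls (208 higher, 269 lower) became 195 (36, 159) with median scaling, 87 (23, 64) in the authors' table, 1803 (946, 857) with all 18 arrays, 1171 (568, 603) with 12 arrays, 0 (0, 0) with neighbouring pairs averaged (limma; 1769 probes at an unadjusted p under 0.05), 45 (15, 30) with the random block, at a consensus correlation of 0.37, and 758 (406, 352) with the blank level as covariate. They became 51 (21, 30) without 5-ALA 1 and 2, 3443 (1761, 1682) without 5-ALA 3 and 4, 34 (13, 21) without AtrxΔE2 4 and 5, and 197 (93, 104) without AtrxΔE2 6 and 7. An adjusted p under 0.01 gave 24 (7, 17), and under 0.1 gave 1272 (620, 652). Leaving out 1 array gave 69 to 604 calls (25 to 307 higher, 44 to 297 lower). A trended and robust prior gave 348 calls (144, 204). Of the 477, 156 were shared with median scaling, 119 with the blank level as covariate, 31 without 5-ALA 1 and 2 and 20 without AtrxΔE2 4 and 5. The cause of these differences was not tested. Calls moved little with no background correction (475), cyclic loess (468), no filter (459), a filter on all 8 arrays (480) and array weights (571). Of 76 named called genes, 41 were called with median scaling, 17 with the random block and 22 to 59 without 1 array. Changes of sign were seen for Alas1 (-0.071 with the blank level as covariate, -0.0166 without AtrxΔE2 4 and 5), Hsp90aa1 (-0.0086 with median scaling), Prox1 (-0.0015 without 5-ALA 1 and 2) and Rspo1 (0.0173 without AtrxΔE2 6 and 7). No paired analysis was possible because the groups share only the number 4. Signal near the blank spots limits Atrx, Xlr4b, Ccl9, S100a9, Fibcd1, Iyd and Pclo. Low signal also applies to Spry2 in AtrxΔE2 mice, and to Xlr3b and Tmem254a in 5-ALA mice.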

Other observations

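Some genes separated neighbouring pairs of arrays more than the groups. Rspo1, a secreted Wnt agonist, stood at 6.28, 6.25, 6.19 and 6.21 in 5-ALA mice, against 6.20, 6.22, 7.09 and 7.08 in AtrxΔE2 mice. Ccn3, a matricellular protein, stood at 8.16, 7.97, 9.68 and 9.90 in 5-ALA mice, against 8.19, 7.85, 8.23 and 8.44 in AtrxΔE2 mice. Prkcd, a protein kinase C abundant in thalamus, stood at 9.93, 9.97, 8.82 and 8.67 in 5-ALA mice, against 9.50, 9.53, 7.72 and 7.66 in AtrxΔE2 mice. None of the 3 passed the test between groups (limma, adjusted p = 0.357 for Rspo1, 0.42 for Ccn3 and 0.523 for Prkcd).

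The GCGGGGGCG letters bound by EGR factors stood in a promoter window of 13 of 121 genes called higher (10.7%) and of 4.35% of 161 genes called lower. Over all tested genes with a window the share was 5.03%. No test was made of this difference.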
